A study of Mus musculus with 24 samples.

Results

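Less studied genes of the Df(16)A deletion were followed in the prefrontal cortex of single mice. In mice with Df(16)A, a stretch of chromosome 16 from Dgcr2 to Hira is missing from the maternal or paternal copy, which models the human 22q11.2 deletion syndrome and its raised risk of schizophrenia. The members are 7 genes of that segment or of its Dgcr2 edge: Dgcr2, Ess2, Trmt2a, Dgcr6, 2510002D24Rik, Car15 and 4933432I09Rik. They were taken by gene symbol from the deposited table, where each is read by a single probe set, and they are 7 of 18820 genes measured. Their level and their decrease in mutants had been seen before they were chosen, so their genotype difference is given as a description, with no p-value, and their calls in the fit over all genes are counted but support nothing.

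The arrays came from 24 males of C57BL6/J background, 8 weeks of age. The mutant group held 12 heterozygotes, labelled Df16(A)+/-, and the control group 12 wild-type littermates. The deletion is carried in the germ line and is not tied to a cell type by a promoter. The labels do not state how the mice fall into litters, so p-values measure the spread between these arrays. The tissue was dissected prefrontal cortex, a mixture of cell types, so fewer cells of a type and less RNA per cell cannot be told apart.

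A deletion of this kind leaves each gene with a single working copy, and for most genes the RNA level then falls towards that of the remaining copy. The products differ widely. Dgcr2 encodes a transmembrane protein with lectin-like and lipoprotein-receptor-like parts that has been linked to reelin signalling in the cortex. Ess2, formerly Dgcr14, encodes a nuclear protein found with the spliceosome at its catalytic stages. Trmt2a encodes an enzyme that methylates a uridine in transfer RNA. Dgcr6 encodes a small protein reported to bind a subunit of the GABA-B receptor. 2510002D24Rik, listed by RefSeq with the synonym Pants, encodes a short protein reported at synapses as a partner of reticulons. Car15 encodes a membrane-anchored carbonic anhydrase, and 4933432I09Rik is a long noncoding RNA of unknown role.

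The starts of these genes differ in sequence, and 3 stretches are shown because the data below bear on them: the region that Trmt2a shares with Ranbp1, and the starts of Dgcr2 and Car15, the neighbours at the proximal edge. The sequences are RefSeq's for assembly GRCm38.p6, written 5′ to 3′ on the strand named, with each CG dinucleotide in capitals. Trmt2a and Ranbp1 run away from each other. Between the annotated start of Ranbp1 and the outer end of the Trmt2a gene model lie 152 bases (chr16:18248695-18248846, plus strand), with 19 CG dinucleotides. The 250 bases before the start of Dgcr2 are chr16:17891729-17891978 and those before Car15 chr16:17838187-17838436, both on the minus strand.
Trmt2a and Ranbp1, between starts: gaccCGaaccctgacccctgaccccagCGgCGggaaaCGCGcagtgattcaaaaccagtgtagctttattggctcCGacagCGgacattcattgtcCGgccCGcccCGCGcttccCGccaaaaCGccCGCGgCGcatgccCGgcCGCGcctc
Dgcr2, before the start: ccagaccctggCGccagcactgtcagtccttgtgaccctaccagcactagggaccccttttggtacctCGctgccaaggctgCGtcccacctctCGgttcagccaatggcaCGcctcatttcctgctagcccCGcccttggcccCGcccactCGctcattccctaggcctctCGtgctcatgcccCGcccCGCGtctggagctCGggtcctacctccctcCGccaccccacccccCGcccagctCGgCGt
Car15, before the start: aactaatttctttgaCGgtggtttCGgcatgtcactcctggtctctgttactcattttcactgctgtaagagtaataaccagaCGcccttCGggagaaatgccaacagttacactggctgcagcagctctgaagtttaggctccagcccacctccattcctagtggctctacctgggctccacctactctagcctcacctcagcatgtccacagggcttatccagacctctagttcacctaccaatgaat

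The window before Dgcr2 held 17 CG dinucleotides, a number reached by 23.5% of the 32851 windows of that length in the RefSeq table, and the window before Car15 held 4, reached by 62.2%. The window before Trmt2a, counted from a start that lies inside the gene model, was the richest of the members, with 36, reached by 2.58%. Ess2 had 7, 2510002D24Rik 6 and the 2 annotated starts of Dgcr6 18 and 4, while those of 4933432I09Rik had 4 and 1. The median over all windows was 6. The letters GGGCGG, the core of a GC box, were searched on both strands with 4 matches before Dgcr2, 3 before Trmt2a and 1 before the first start of Dgcr6, and 32.7% of all windows held them. CCAAT, also searched on both strands, had 3 matches before Ess2 and 1 each before Dgcr2, Trmt2a, 2510002D24Rik, Car15 and the first start of 4933432I09Rik, and 33.8% of all windows held it. These matches describe letters and do not mark sites in use.

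All 7 genes had lower means in mutants, with log2 fold changes from -0.82 to -0.53 and a median of -0.68. As remaining level, the mutants had 56.7% to 69.4% of the wild-type value, where a plain loss of a single copy would leave 50%. Lower calls (limma over all genes, adjusted p under 0.05) were made for 0.228% of the 18820 genes and for all 7 members, a count that the choice of members fixes. In 6 of the 7 every mutant lay below every wild type. That separation was found for 0.106% of genes, 20 in all, and each of the 20 was on the list of the deleted segment or its edge. The exception among the members was 4933432I09Rik.

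**Figure D1:**
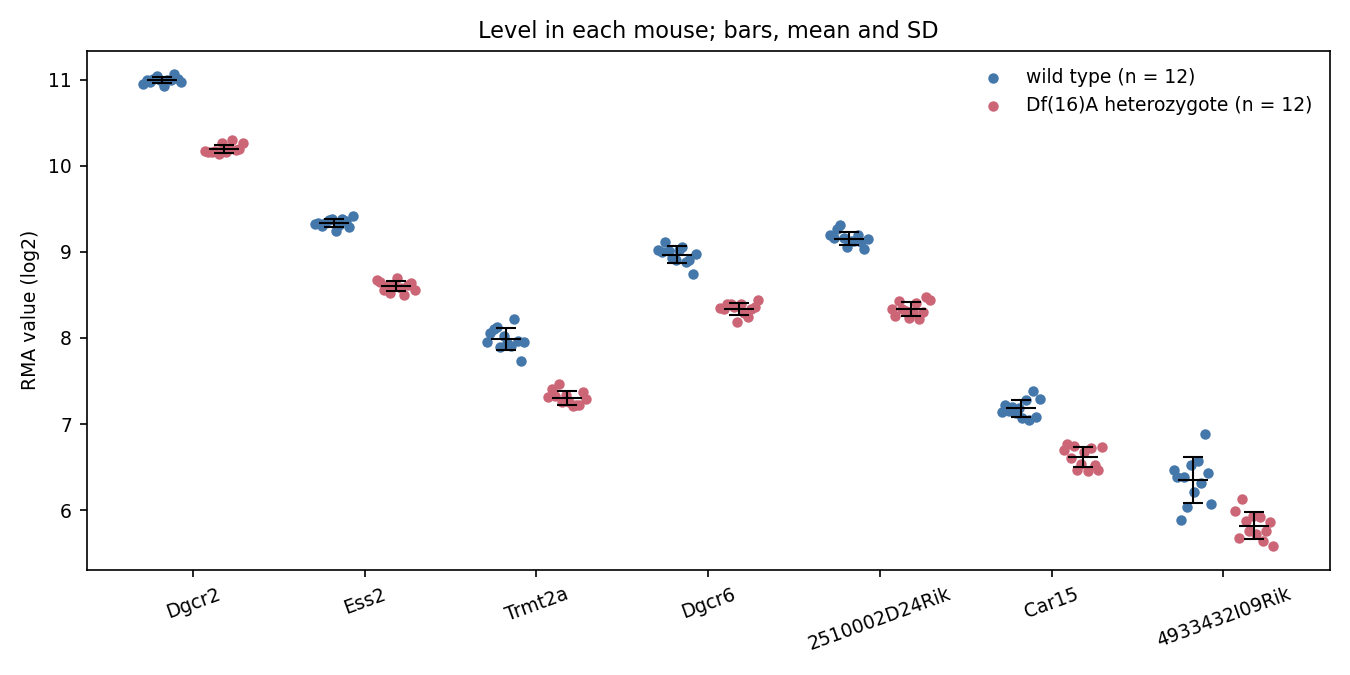
RMA value on the log2 scale (vertical axis) of each of the 7 genes in 12 wild-type mice (blue) and 12 Df(16)A heterozygotes (red); each point is a mouse and the bars give the mean and SD. The groups are apart in 6 genes, and in 4933432I09Rik they overlap, with a wild type at 5.89 and a mutant at 6.13.

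Dgcr2, the gene at the proximal edge of the deletion, lay between 10.92 and 11.06 in wild types, with a median of 10.99, and between 10.14 and 10.30 in mutants, with a median of 10.18. The means were 10.99 ± 0.04 (SD, n = 12) and 10.20 ± 0.05, a log2 fold change of -0.80 ± 0.02 (SE). The distance of 0.62 between the lowest wild type and the highest mutant was larger than the whole range of either genotype, which was 0.14 in wild types and 0.17 in mutants. Set against the wild-type mean, single mutants had from 0.553 to 0.620 of the level. The deposited table has 1 value for the whole transcript, so exons on the 2 sides of a breakpoint were not told apart here.

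Ess2, the spliceosome-associated protein, showed the same tight pattern. Its values ran from 9.24 to 9.41 in wild types, with a median of 9.34, and from 8.50 to 8.69 in mutants, with a median of 8.61. The log2 fold change was -0.73 ± 0.02 (SE), and the gap between the genotypes was 0.55. The decrease was 13.9 times the SD within a genotype for Ess2 and 17.6 times for Dgcr2, against 2.38 to 9.79 times for the other 5 members.

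Trmt2a, the transfer RNA methyltransferase, was less uniform between mice. Wild types ran from 7.73 to 8.22, with a median of 7.96, and mutants from 7.21 to 7.47, with a median of 7.30. The log2 fold change was -0.68 ± 0.04 (SE), which left 62.4% of the wild-type level. The groups were 0.26 apart, with the wild type of replicate 11 closest to the mutants. The gene tables place the end of Trmt2a over that of Dgcr8, on the opposite strand, and it was not tested whether the probes lie in the shared stretch.

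Dgcr6, the reported GABA-B receptor partner, had the smallest decrease of the 5 brighter genes. Wild types lay between 8.74 and 9.11, with a median of 8.99, and mutants between 8.19 and 8.44, with a median of 8.35. The log2 fold change was -0.62 ± 0.04 (SE), or 64.9% of the wild-type level. Here too the lowest wild type was replicate 11, and the gap to the highest mutant was 0.30.

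2510002D24Rik, the gene of the short synaptic protein, had the largest decrease of the 7. Its wild types ran from 9.03 to 9.31, with a median of 9.16, and its mutants from 8.22 to 8.48, with a median of 8.32. The log2 fold change was -0.82 ± 0.03 (SE), which left 56.7%. Among 28 measured genes of the segment it ranked 3 by size of decrease, after Slc25a1 and Ufd1, both at -0.88.

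Car15 lies beyond the end of Dgcr2 on the outer side of the segment. Wild types lay between 7.05 and 7.38, with a median of 7.17, and mutants between 6.45 and 6.77, with a median of 6.64. The log2 fold change was -0.57 ± 0.04 (SE), and no mutant reached the lowest wild type. The next measured gene outward, the long noncoding RNA B830017H08Rik, had 7.21 ± 0.14 (SD, n = 12) in wild types and 7.37 ± 0.13 in mutants, a log2 fold change of 0.16 ± 0.05 that did not pass the test (limma, adjusted p = 0.19). The mean of Car15 was lower in mutants and that of the gene after it was not.

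4933432I09Rik, the noncoding RNA between Rtn4r and Zdhhc8, was the dimmest and most variable member. Wild types ran from 5.89 to 6.89, with a median of 6.38, and mutants from 5.58 to 6.13, with a median of 5.81. The log2 fold change was -0.53 ± 0.09 (SE). The wild type of replicate 3 was the lowest of its group and the mutant of replicate 3 the highest of the other. Of the mutants, 8 lay below every wild type, and 9 wild types lay above every mutant.

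The name bright holds for 5 of the 7. In wild types Dgcr2 stood at the 94.2 percentile of all genes by signal, Ess2 at 75.5, 2510002D24Rik at 72.9, Dgcr6 at 69.9 and Trmt2a at 55.2, where the median gene was at 7.59. Car15 stood at the 45.3 and 4933432I09Rik at the 36.6 percentile, below that median. Signal depends on the probes as well as on the RNA, so these ranks order probe sets and not transcript numbers. The 5 brighter genes kept 56.7% to 64.9% of the wild-type level and the 2 dimmer ones 67.6% and 69.4%.

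Pairs of members were also compared within each mouse. Of 21 pairs, 11 differed in their change by more than 2 standard errors, given as a description since the members were chosen from this contrast. The decrease of 2510002D24Rik was larger than that of Dgcr6 by 0.19 ± 0.03 (SE), although the 2 genes had nearly the same signal in wild types, at 9.15 and 8.96. Dgcr2 and 2510002D24Rik differed by 0.02 ± 0.04. Car15 and 4933432I09Rik differed by -0.04 ± 0.10, and Ess2 and Trmt2a by -0.05 ± 0.04.

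Against the rest of the segment, the members covered the middle of the range. Of 21 other measured genes, 15 fell (limma, adjusted p under 0.05), with log2 fold changes from -0.88 to -0.27. The median of these 15, which had to show a decrease to be counted, was -0.68, as for the 7 members. Over all 28 measured genes of the segment, members included, it was -0.64. Zdhhc8, a palmitoyltransferase, had -0.80, Tango2 -0.77, Mrpl40, a mitochondrial ribosomal protein, -0.76, Prodh, which degrades proline, -0.71 and Rtn4r, the Nogo receptor, -0.68. Hira, a histone chaperone, and Txnrd2, a mitochondrial thioredoxin reductase, had -0.64, Cldn5, a tight-junction protein, -0.63, Arvcf, a catenin, -0.61 and Dgcr8, the partner of Drosha, -0.54. The smallest of the decreases that passed were in Cdc45 (-0.30) and Gnb1l (-0.27), at wild-type signals of 6.25 and 6.26.

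Genes that did not pass were Tbx1 (-0.17), Mir185 (-0.16), Tssk1 (-0.06), Tssk2 (-0.03), Vpreb2, whose group means were both 5.74, and Gsc2 (0.06), with adjusted p from 0.119 to 0.996 (limma). Over the 22 genes of the segment with a lower call, the 7 members included, brightness and log2 fold change had r = -0.83 and rho = -0.83, a description over genes that share the same mice and that had to show a decrease to be counted. Brighter genes thus had changes nearer to -1. Compared with genes of like signal, 4933432I09Rik had a larger decrease, -0.53 ± 0.09 (SE) at 6.35, than Cdc45 (± 0.04) and Gnb1l (± 0.03). In arrays 1 to 12 alone 4933432I09Rik had -0.36 ± 0.11, and in arrays 13 to 24 alone -0.68 ± 0.12. Background signal was not measured in these files, and its part in the relation of brightness and log2 fold change was not tested.

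**Figure D2:**
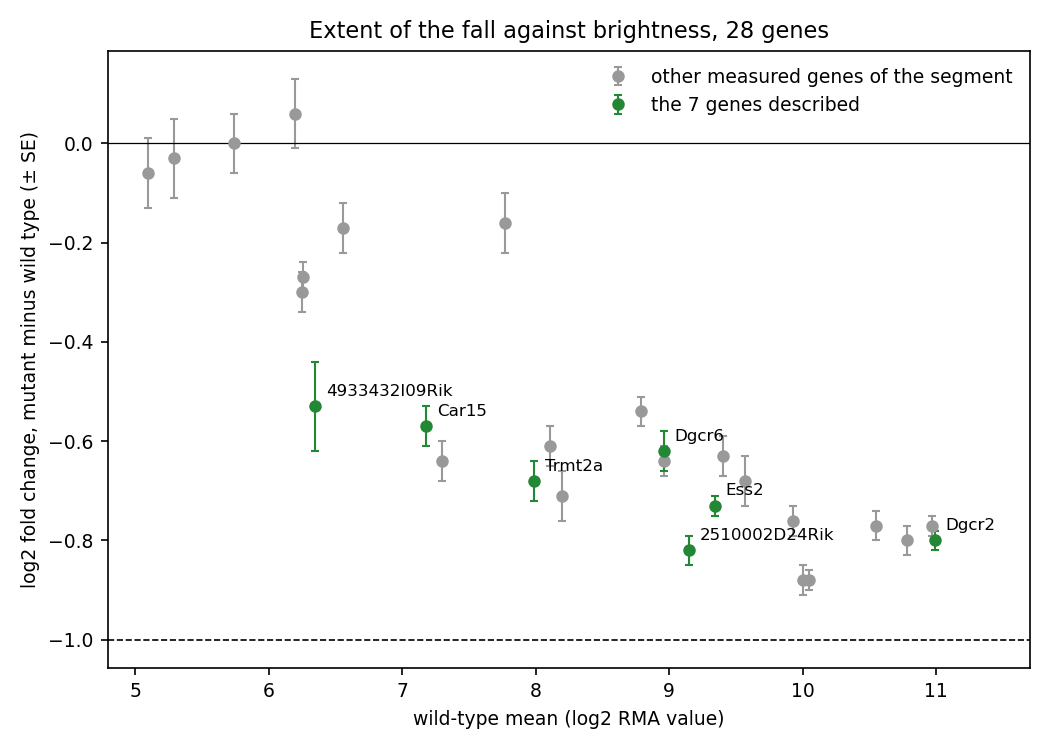
Log2 fold change, mutant minus wild type, with its SE (vertical axis), against the wild-type mean RMA value on the log2 scale for 28 genes of the segment or its edge; the 7 members are green and named, the other 21 grey. The dashed line at -1 marks a plain loss of a single copy, and brighter genes lie closer to it.

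The spread between mice of a genotype was not used to choose the genes, and it differed widely from gene to gene. In wild types the SD ran from 0.038 for Dgcr2 and 0.046 for Ess2 to 0.27 for 4933432I09Rik, where the median gene of the array had 0.11. Mutants ranged from 0.052 for Dgcr2 to 0.159 for 4933432I09Rik. The SD in mutants over that in wild types was 0.59 for 4933432I09Rik, 0.639 for Trmt2a, 0.70 for Dgcr6, 1.10 for 2510002D24Rik, 1.21 for Car15, 1.27 for Ess2 and 1.36 for Dgcr2, and 1.02 for the median gene. None of the 7 ratios passed a two-sided permutation test with 100000 resamples (unadjusted p from 0.165 to 0.719, 0 of 7 under 0.05; adjusted p of 0.549 or above). A difference in spread was not detectable with 12 mice a genotype.

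The wild type of replicate 11 was the lowest of its group in 3 members, Trmt2a (7.73), Dgcr6 (8.74) and 2510002D24Rik (9.03), and the wild type of replicate 10 the highest in 3, Dgcr2 (11.06), Car15 (7.38) and 4933432I09Rik (6.89). Without replicate 11 the wild-type SD was 0.102 in place of 0.126 for Trmt2a and 0.071 in place of 0.098 for Dgcr6. Among mutants, replicates 8 and 9 were each the lowest in 2 members. Replicate 9 was at the same time the highest mutant for Dgcr2.

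**Figure D3:**
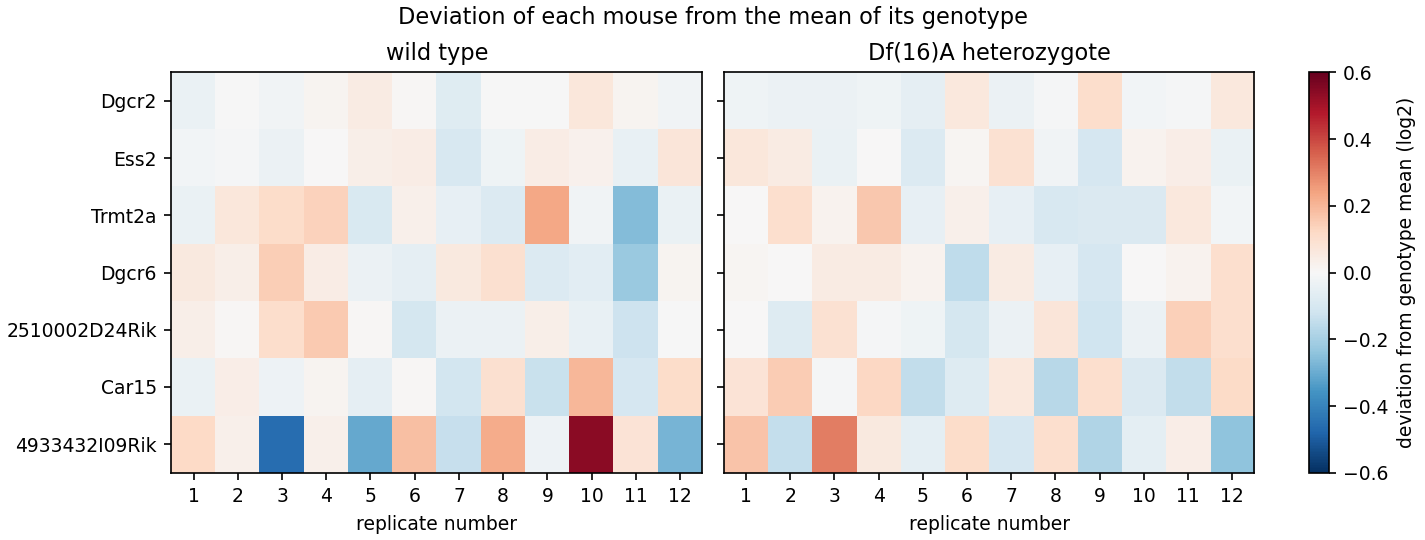
Deviation of each mouse from the mean of its genotype on the log2 scale (colour), for the 7 genes (rows) and replicates 1 to 12 (columns) of wild types (left) and heterozygotes (right). Blue cells of wild-type replicate 11 stand in the rows of Trmt2a, Dgcr6 and 2510002D24Rik, and the row of 4933432I09Rik has the strongest colours.

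No pair of members passed a test for moving together between mice of a genotype. Over 21 pairs, the mean r was 0.13 in wild types and 0.03 in mutants, each over 12 mice. The wild-type mean was 0.03 without replicate 11. Of 42 correlations, 3 had an unadjusted permutation p under 0.05 and none passed after adjustment over the 42, by r or by rho. The highest involved 2510002D24Rik. Its r with Dgcr6 was 0.60 in mutants (rho 0.63, permutation p = 0.0358 and 0.0326, adjusted p = 0.501 and 0.783) and 0.62 in wild types (rho 0.44, permutation p = 0.0327 and 0.154, adjusted p = 0.501 and 0.812). Without the 2 mice farthest from the median of Dgcr6 these values were 0.21 and 0.22, and they were not tested. Its r with Trmt2a was 0.68 in wild types (rho 0.62, permutation p = 0.0149 and 0.0373, adjusted p = 0.501 and 0.783), 0.63 without the 2 farthest mice, and 0.08 in mutants (rho 0.13, permutation p = 0.807 and 0.702, adjusted p = 0.915 and 0.921).

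Genes whose starts lie close together were compared in the same way, each member with the measured gene of nearest start. Trmt2a and Ranbp1, a regulator of the Ran transport cycle, share the 152 bases printed above. Ranbp1 had 10.55 ± 0.08 (SD, n = 12) in wild types and 9.78 ± 0.07 in mutants, and its log2 fold change was -0.77 ± 0.03 (limma, adjusted p = 9.69e-16), beside -0.68 for Trmt2a. From mouse to mouse their levels had an r of 0.05 in wild types (rho 0.20, permutation p = 0.887 and 0.529, adjusted p = 0.969 and 0.956) and -0.01 in mutants (rho 0.08, permutation p = 0.969 and 0.814, adjusted p = 0.969 and 0.956). Without the 2 mice farthest from the median of Trmt2a, r was 0.46 and 0.45, values that were not tested.

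The other pairs were Dgcr2 with Tssk1, a testis kinase gene, Ess2 with Gsc2, Dgcr6 with Prodh, 2510002D24Rik with Ufd1, Car15 with B830017H08Rik and 4933432I09Rik with Zdhhc8. Of the 14 correlations, 7 pairs in 2 genotypes, none had an unadjusted permutation p under 0.05. The largest were those of 2510002D24Rik with Ufd1, which helps to extract ubiquitinated proteins for degradation, with r of 0.47 in mutants (rho 0.43, permutation p = 0.127 and 0.162, adjusted p = 0.969 and 0.956) and 0.38 in wild types (rho 0.39, permutation p = 0.22 and 0.21, adjusted p = 0.969 and 0.956). Without the 2 farthest mice these were 0.69 and 0.53, values that were not tested. The same step moved other pairs in both directions. Dgcr2 with Tssk1 in mutants went from 0.21 to -0.44, and Ess2 with Gsc2 in wild types from 0.21 to 0.35. Tssk1 and Gsc2 were dim, at wild-type signals of 5.1 and 6.2. Neither passed the test between genotypes (limma, adjusted p = 0.778 and 0.814).

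The genes most like each member were sought over the whole array by the correlation of deviations from the genotype mean over 24 mice, as a description. Dgcr2 was most like 2900026A02Rik (r = 0.82), Shisa4 (0.80) and Dgkz (0.79), and Dgcr6 most like Ube2e2 (0.81), Utp18 (0.80) and Tspyl5 (0.79). Trmt2a was nearest to Fer (0.79), Rabgef1 (0.74) and Olfr1029 (0.71), and Ess2 to Foxh1 (0.79), Tln2 (0.70) and Lct (0.65). None of these 12 genes lies on the list of the segment. Foxh1 and Olfr1029 were dim, at wild-type signals of 4.54 and 4.61, where the median gene was at 7.59.

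For 2510002D24Rik the nearest were Wnt8b (0.77, also dim, at a wild-type signal of 4.65), Tmed8 (0.74) and Snrnp25 (0.72). For Car15 they were Crispld2 (0.69), Retreg2 (0.68) and Kctd18 (0.67), and for 4933432I09Rik Snora30 (0.77), 1700071K01Rik (0.75) and Usp40 (0.75). None of the 21 genes passed the test between genotypes (limma, adjusted p from 0.258 to 0.989). Each is the highest of all genes by choice, and the median r of a member with all genes lay between -0.05 and 0.05.

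The labels carry a running array number, and arrays 1 to 12 share no mouse with arrays 13 to 24. The first set held 7 mutants and 5 wild types and the second 5 mutants and 7 wild types. Dgcr2 had log2 fold changes of -0.82 ± 0.03 (SE) and -0.77 ± 0.04 in the 2 sets, Ess2 -0.72 ± 0.04 and -0.76 ± 0.04, and Trmt2a -0.69 ± 0.05 and -0.70 ± 0.07. The interaction for these 3 genes did not pass either (limma, adjusted p from 0.885 to 0.988). Dgcr6 had -0.67 ± 0.04 and -0.59 ± 0.06, and Car15 -0.53 ± 0.05 and -0.61 ± 0.07.

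The largest differences between the sets were in the most and the least reduced gene. 2510002D24Rik had -0.90 ± 0.04 and -0.74 ± 0.05, a difference of 0.16 ± 0.06, and 4933432I09Rik -0.36 ± 0.11 and -0.68 ± 0.12, a difference of -0.32 ± 0.17. In the interaction of genotype and array set, fitted over all genes, neither passed (limma, adjusted p = 0.813 for both, unadjusted p = 0.0184 and 0.0714). An unadjusted p under 0.05 in that interaction was found for 5.87% of genes and an adjusted one for 0%, so 1 of 7 members with a low unadjusted p is not set apart from the background.

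**Figure D4:**
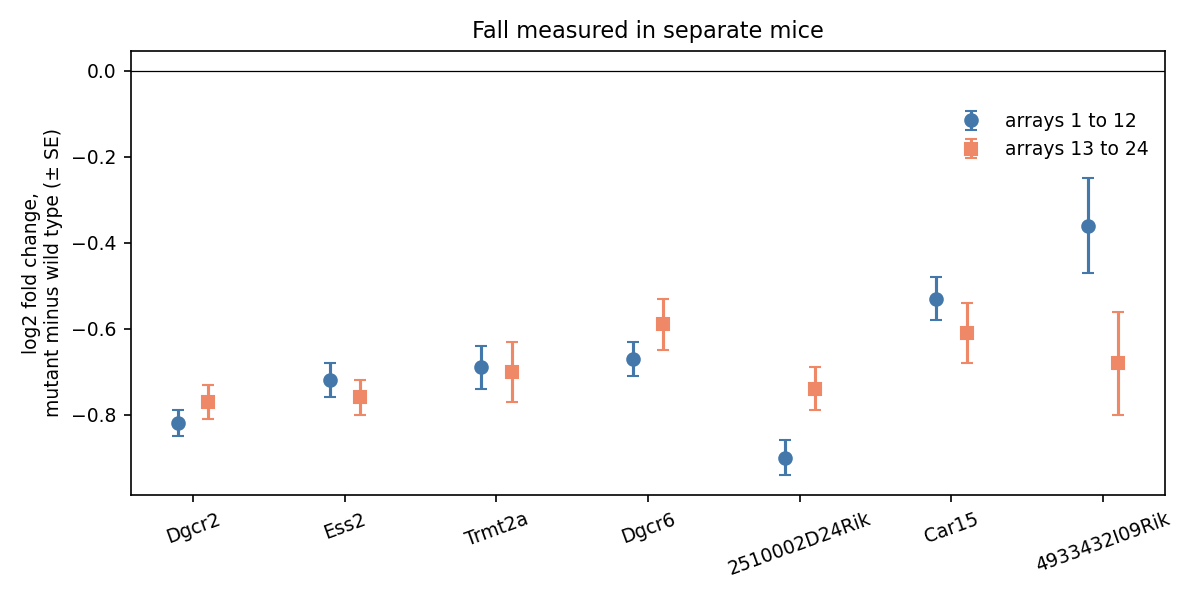
Log2 fold change, mutant minus wild type, with its SE (vertical axis) for the 7 genes, in arrays 1 to 12 (blue circles) and in arrays 13 to 24 (orange squares), which share no mouse. The sets are farthest apart in 4933432I09Rik, at -0.36 and -0.68, and in 2510002D24Rik, at -0.90 and -0.74.

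Genes outside the deletion that are known to act with a member, or belong to its family, were compared between genotypes as the wider setting of these decreases. In 6 lists with 135 measured genes, none passed the test (limma, adjusted p under 0.05, where 0.76% of all genes passed in either direction). At an unadjusted p under 0.05 there were 13, or 9.63%, against 11.9% of all genes. The list of transfer RNA modification enzymes, around Trmt2a, had 42 measured genes with a median log2 fold change of -0.02, and 32 lay below 0. Its lowest p-values were those of Mettl6, which methylates cytidine in transfer RNA, with -0.10 ± 0.04 (SE), and of Nsun6, another cytosine methyltransferase, with -0.10 ± 0.05 (limma, adjusted p = 0.269 and 0.38). Trmt12, an enzyme of wybutosine synthesis, had -0.10 ± 0.04 and Pus3, a pseudouridine synthase, -0.08 ± 0.04.

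The spliceosome list, around Ess2, had 38 measured genes with a median of -0.03, of which 30 lay below 0. Over all genes 51% lay below 0 and the median was -0.0014. Aqr, a helicase of the spliceosome, had -0.09 ± 0.03 (SE) and Crnkl1, a scaffold protein, -0.11 ± 0.04 (limma, adjusted p = 0.117 and 0.279). Isy1 had -0.10 ± 0.04 and Slu7, a second-step splicing factor, -0.08 ± 0.03.

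The 13 measured carbonic anhydrases had a median of -0.06, and 8 lay below 0. Car4, a membrane-anchored form of brain capillaries, had 0.10 ± 0.04 (SE), Car10, a form without catalytic activity, -0.06 ± 0.02 and Car7, a neuronal form, -0.07 ± 0.04 (limma, adjusted p = 0.352, 0.357 and 0.437). Car1, the abundant form of red blood cells, had -0.55 ± 0.26 (limma, adjusted p = 0.401), about the change of Car15, but its wild types varied, at 5.55 ± 0.93 (SD, n = 12), against 5.0 ± 0.22 in mutants. Of 10 blood markers listed, 5 were measured, 4 of them genes of granulocytes and not of red cells. All 5 log2 fold changes lay below 0, with a median of -0.46, and none passed the test (limma; 3 at an unadjusted p under 0.05). The marker that is not a granulocyte gene had the smallest of these changes, -0.05. Ngp, a granule protein, had 7.24 ± 1.44 (SD, n = 12) in wild types and 6.04 ± 0.67 in mutants, and S100a8 had 6.10 ± 1.11 and 5.43 ± 0.39. The mean level of the 5 ran from 5.93 to 8.62 in wild types and from 5.62 to 6.48 in mutants. The part of blood cells in the value of Car1 was not tested.

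The remaining lists lay near 0. Reelin signalling, linked to Dgcr2, had 16 measured genes with a median of -0.01. Reln itself had 9.78 ± 0.06 (SD, n = 12) in wild types and 9.87 ± 0.05 in mutants (limma, adjusted p = 0.152), and its receptor Lrp8 a log2 fold change of 0.04 ± 0.03 (SE). Itgb1, an integrin, had -0.08 ± 0.03 and Cul5, a ubiquitin ligase subunit, -0.05 ± 0.03. The 14 genes around the GABA-B receptor, linked to Dgcr6, had a median of 0.01. The receptor subunit Gabbr1 had 12.55 ± 0.03 (SD, n = 12) and 12.54 ± 0.03, and the potassium channel genes Kcnj3 and Kcnj9 had log2 fold changes of -0.07 ± 0.03 (SE) and -0.04 ± 0.03. The 12 genes of reticulons and Nogo signalling outside the deletion, linked to 2510002D24Rik, had a median of -0.01, with Rtn4 at -0.03 ± 0.03, Rtn2 at -0.04 ± 0.03, Rtn4rl2 at 0.07 ± 0.06 and Ngfr at 0.08 ± 0.06.

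**Figure D5:**
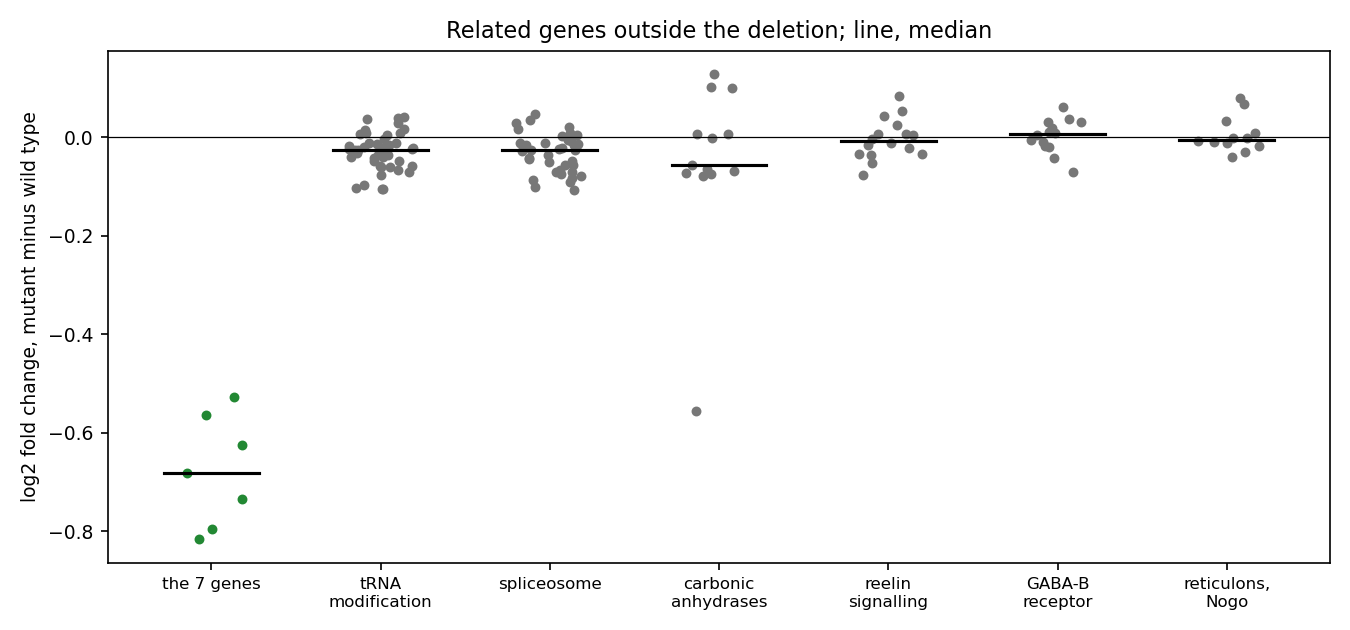
Log2 fold change, mutant minus wild type (vertical axis), of the 7 members (green) and of each measured gene in 6 lists of related genes outside the deletion (grey); each point is a gene and the line the list's median. The list medians lie between -0.06 and 0.01, and the low carbonic anhydrase is Car1.

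The arrays as a whole were alike, with pairwise correlations over all genes of 0.994 to 0.997. Marker signals depend on their probes, so they were not used to rank cell types: over the arrays those of neurons averaged 12.14 to 12.23, of astrocytes 10.69 to 10.91, of cortical layers 9.56 to 9.81, of striatum 8.13 to 8.37 and of choroid plexus 5.85 to 6.66. None of the markers in 9 lists of cell types and neighbouring regions passed the test between genotypes (limma; 8 of 64 at an unadjusted p under 0.05), and outside blood the list medians lay between -0.06 for oligodendrocytes and 0.04 for striatum. All 7 measured oligodendrocyte markers lay below 0 and 6 of 8 astrocyte markers above it, where 51% of all genes lay below 0. None of these markers had an unadjusted p under 0.05 (limma). The striatum median covers changes in opposite directions, with 3 of 6 markers at an unadjusted p under 0.05 (limma), against 11.9% of all genes. Ppp1r1b had 0.13 ± 0.04 (SE), Drd2 0.12 ± 0.05 and Penk -0.14 ± 0.05.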

How the data were processed

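A miRNeasy kit gave the total RNA, of which 100 ng was labelled for Affymetrix whole-transcript sense arrays, per the labels' protocols. The deposited values are on a log2 scale, made by the authors with RMA per the submitters' processing notes; for its version, the genome build and detection calls, the sources used here give nothing. The deposited table held 35556 probe sets, of which 21218 carry 1 gene symbol in the platform annotation, 1881 several and 12457 none. The brightest probe set stood for each of 18820 genes, and array medians lay between 6.71 and 6.82. The number of arrays limits the precision.

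Genotypes were compared with limma 3.58.1 in R 4.3.3 over all genes, with Benjamini-Hochberg adjusted p under 0.05 as the threshold. The script was tested on simulated data. Spread and correlations used two-sided permutation tests with 100000 resamples, adjusted within each family. Genes were named by rule: the members, the other measured segment genes, each member's neighbour by transcription start, up to 4 genes of smallest p in each list of related genes, and 3 genes most like each member. The members and lists were chosen with earlier results of these data known. Alternatives were other normalizations, probe set rules, filters, limma settings, blocks and left-out arrays. Same-numbered mice of the 2 genotypes were not taken as pairs.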

Additional observations from a re-analysis of the deposited data

How the results depend on the processing

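The 7 members kept their direction under every alternative run, and 6 had groups that do not overlap under each, except in arrays 13 to 24 alone, where 7 did. That count depends only on the values and the mice used, so alternatives that change the fit or the genes tested could not alter it. Each member is read by a single probe set, so the probe set rules could not alter it either. Leaving out mice can keep the count or raise it but cannot lower it, and the 2 sets of arrays are runs of that kind. Only quantile normalization and median centring could have lowered it, and both gave 6. Over all alternatives, the log2 fold change of 4933432I09Rik ranged most, from -0.68 to -0.36, and that of 2510002D24Rik from -0.90 to -0.74. Genes with a lower call numbered 43, and 66 with a mean-variance trend, 66 above the 25th percentile of brightness, 23 in arrays 1 to 12 and 22 in arrays 13 to 24; higher calls numbered 100, and 35 in each set of arrays, where fewer mice were tested. Leaving out each array in turn gave 37 to 56 lower and 82 to 108 higher calls. The mean pairwise correlation of the members in mutants was 0.03, and -0.07 without mutant replicates 5, 9 and 10 and -0.04 without the first residual component; leaving out each array gave -0.01 to 0.06, and in wild types 0.03 to 0.17. For Trmt2a the difference in log2 fold change between the 2 sets of arrays was -0.01, and 6.8e-05 in log2 units without those 3 mutants. It changed sign there but stayed very small.

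Some correlations with neighbours changed sign. That of Car15 in wild types was -0.05 after quantile normalization and -0.0013 after median centring, where Dgcr2 in wild types had 0.01 and Ess2 in mutants 0.01. Dgcr2 in mutants had 0.21, and -0.33 without the 3 mutants. The cause was not tested. With neighbours chosen by lowest coordinate, an alternative added after seeing the data, the partner gene itself was another: Dgcr2 with Car15 had 0.42 in wild types, Ess2 with Tssk2 0.05 in mutants, and Trmt2a with Dgcr8 0.26 in mutants and -0.05 in wild types. Mice that share a replicate number had correlations of deviations from -0.08 to 0.31, with a median of 0.10, against a median of -0.01 for different numbers. The labels do not tie the numbers to litters, and they were not taken as pairs. With the replicate block there were 37 lower and 110 higher calls. With no detection call in the files, background limits what can be said of the dim genes.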
